A study of Mus musculus with 168 samples.

Results

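Transcripts of 10 genes that buffer calcium in the cell or pump it out of the cytosol were followed through 6 neuron populations of a mouse model of spinal muscular atrophy (SMA). The genes were taken by name, and each matched 1 of the 39410 rows of the deposited expression table. They are the EF-hand buffers Pvalb (parvalbumin), Calb1 (calbindin) and Calb2 (calretinin), the sodium-calcium exchangers Slc8a1, Slc8a2 and Slc8a3, the plasma membrane calcium pumps Atp2b1, Atp2b2 and Atp2b3, and Atp2a2, the SERCA2 pump of the endoplasmic reticulum. Motor neurons of the oculomotor and trochlear nuclei (called ocular), the facial, vagus and hypoglossal nuclei and the lumbar spinal cord, and neurons of the red nucleus, which are not motor neurons, were cut by laser from frozen sections. About 150 cells went into each tube and became 1 Smart-seq2 library, made by copying whole transcripts into cDNA from very little RNA. Values are RPKM (reads per kilobase of gene and per 1e6 reads of the library), so that levels can be set side by side between genes. Delta7 SMA mice (Smn-/-, SMN2+/+, SMNΔ7+/+) were compared with littermates (Smn+/+, SMN2+/+, SMNΔ7+/+) that carry the same human transgenes, at postnatal days 2, 5 and 10, before symptoms and at an early and a late stage. The mouse was the replicate: 34 mice, 15 control and 19 SMA, gave 160 samples in 36 groups of 3 to 7 mice, with 6 control and 9 SMA mice at day 2, 5 and 5 at day 5, and 4 and 5 at day 10.

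Calcium that enters a neuron is first bound by cytosolic buffers and is then removed by exchangers and pumps in the plasma membrane or taken into the endoplasmic reticulum by SERCA pumps. Motor neurons of the eye muscles are known for high parvalbumin and for their sparing in motor neuron diseases, while spinal motor neurons hold little parvalbumin and calbindin and are vulnerable. Strong buffering has been proposed as a basis of this sparing, which is the question behind the comparison of populations.

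Library depth was 0.342 to 16.3 M reads (median 5.89), recovered from the steps of low RPKM values. The shallowest was the red nucleus library of control mouse 252 at day 10, with 12121 genes above 0. Smn1, the gene deleted in the SMA mice, was at 4.32 RPKM or more in each control sample and at 4.24 or less in each SMA sample. The cholinergic enzyme gene Chat averaged 20.2 to 34.0 RPKM in the 5 control motor populations and 0.176 in the red nucleus, and 4 motor neuron markers (Chat, Slc5a7, Isl1, Prph) summed to at least 452 in each motor sample and at most 100.5 in each red nucleus sample. Markers of inhibitory neurons (Gad1, Gad2, Slc32a1, Slc6a5) summed to at most 119.9 in any sample. Markers of oligodendrocytes (Mbp, Mog, Mag, Olig1, Sox10) had higher sums at day 10 than at day 2 in every population but the vagus, for example 23.2–48.4 and then 381.4–829 in control lumbar samples against 17.4–70.6 and 15.3–49.4 in control vagus samples. These tubes hold small pools of cells, so fewer cells of a type and less RNA per cell cannot be told apart.

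The 10 genes lie on 10 chromosomes and all are protein coding (GENCODE M21, GRCm38). Pvalb lies on chromosome 15 (78191114 to 78206400, minus strand), Calb1 on chromosome 4 (15881264 to 15908064, plus) and Calb2 on chromosome 8 (110137502 to 110168210, minus). The exchanger genes Slc8a1, Slc8a2 and Slc8a3 lie on chromosome 17 (81373105 to 81738377, minus), chromosome 7 (16129826 to 16161063, plus) and chromosome 12 (81197915 to 81333180, minus). The pump genes Atp2b1, Atp2b2 and Atp2b3 lie on chromosome 10 (98914406 to 99026143, plus), chromosome 6 (113743831 to 114042613, minus) and X (73503086 to 73571005, plus). Atp2a2 lies on chromosome 5 (122453513 to 122502225, minus). Promoters are printed to set the gene with the widest range over populations, Pvalb, beside Atp2b2, a pump gene whose means ranged 3.67-fold; each line holds the 250 bases before the outermost RefSeq start (GRCm38.p6), chr15:78206401-78206650 and chr6:114042081-114042330, both on the minus strand and written 5′ to 3′, with CG dinucleotides in capitals.
Pvalb: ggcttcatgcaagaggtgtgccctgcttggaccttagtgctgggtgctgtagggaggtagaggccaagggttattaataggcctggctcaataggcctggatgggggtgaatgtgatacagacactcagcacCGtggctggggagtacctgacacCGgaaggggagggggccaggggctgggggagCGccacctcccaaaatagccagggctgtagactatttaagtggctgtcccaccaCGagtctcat
Atp2b2: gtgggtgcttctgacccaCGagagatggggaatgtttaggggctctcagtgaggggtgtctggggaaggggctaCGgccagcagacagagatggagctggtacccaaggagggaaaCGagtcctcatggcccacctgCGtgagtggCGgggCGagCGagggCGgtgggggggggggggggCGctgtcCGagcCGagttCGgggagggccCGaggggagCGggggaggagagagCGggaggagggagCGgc
The Pvalb window held 4 CG and 58.4% G or C, and the Atp2b2 window 16 CG and 69.6%. Over 32851 RefSeq windows of the same 250 bases the medians were 6 CG and 52.4%, and 62.2% of windows held at least 4 CG against 25.4% with at least 16. Of the 10 genes, 6 matched a window; among the other 4 matched windows Atp2b1 held 43 CG, a number reached by 0.712% of windows, and Slc8a1, Slc8a2 and Slc8a3 held 8, 9 and 11. The Atp2b2 window lies inside the GENCODE span of its gene, whose 5′ end is at 114042613, so the 2 annotations differ in the start. The Atp2b1 window (98914392 to 98914641) also runs into the GENCODE span of its gene. These counts describe the sequence only.

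Across populations of control mice, the 3 buffers had the widest ratios of highest to lowest mean (23.7 to 343), while the ratio was 2.18 to 3.67 for the pumps, Slc8a1 and Slc8a3 and 7.2 for Slc8a2. With limma on log2(RPKM + 1), ages weighted equally and the mouse as a block, 83 of 150 member comparisons passed an adjusted p of 0.05 (55.3%, 40 higher and 43 lower), against 18.2% of all tests over all genes in these comparisons. In the separate SMA mice 79 of 150 passed (52.7%), against 20.3% of all tests. Differences are given on the log2(RPKM + 1) scale, which understates the change of genes with low values.

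Pvalb set the ocular motor neurons apart from every other population. In control mice its level was 1604 ± 302 RPKM (SD, n = 12) in ocular neurons, place 49 of 39410 rows by mean, 245.7 ± 279 (n = 11) in the red nucleus, 78.9 ± 39.3 (n = 12) in hypoglossal, 44.6 ± 29.4 (n = 13) in lumbar, 15.9 ± 15.7 (n = 13) in facial and 4.68 ± 4.96 (n = 11) in vagus neurons. The ocular mean was 343-fold the vagus mean. By mouse, the ocular control values were 1229, 2036, 2011 and 1326 at day 2, 1329, 1294, 1558 and 1353 at day 5, and 1572, 1949, 1815 and 1776 at day 10, so the lowest ocular sample lay above the highest control sample of any other population, 776 in the red nucleus. Ocular exceeded red nucleus by 3.82 (SE 0.38, limma adjusted p = 1.73e-12), lumbar by 5.36 (SE 0.36), facial by 7.07 (SE 0.36) and vagus by 8.67 (SE 0.38). The order below ocular was less sharp: red nucleus against hypoglossal (0.73, adjusted p = 0.187) and hypoglossal against lumbar (0.81, adjusted p = 0.157) did not pass. The ocular level was already present at day 2, with an ocular minus lumbar difference of 5.79 (SE 0.65), 5.60 (SE 0.61) and 4.67 (SE 0.64) at days 2, 5 and 10. In the same ocular control samples the inhibitory neuron markers, some of whose cells also carry parvalbumin, summed to 3.02–56.7.

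Single nuclei were available for part of the ocular samples. At day 5, control mice 30 and 75 had only single-nucleus libraries, and control mouse 29 only an oculomotor one. Control mouse 71 and all SMA mice of that age had libraries of both nuclei together. The ocular genotype difference at day 5 therefore cannot be fully told apart from this sampling. In 4 mice the oculomotor and trochlear nuclei had separate libraries, with Pvalb at 1488 and 1100 RPKM in control mouse 30, 1074 and 1633 in control mouse 75, 1534 and 2018 in control mouse 254, and 1365 and 1573 in SMA mouse 196. The trochlear library was higher in 3 of these 4 mice, and both nuclei stayed far above the other populations in each. Atp2a2 was higher in the oculomotor library of the 3 control mice (162.3 and 146.9, 175.99 and 147.7, 206.6 and 158.7) and lower in that of SMA mouse 196 (127.5 and 155.1). With 4 pairs no exact test can reach 0.05, and none was run.

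Calb1 ran in another order over the 3 ages together, highest in hypoglossal neurons and near 0 in the red nucleus. At day 10, however, every control vagus sample (18.27–28.09 RPKM) lay above every control hypoglossal sample (10.72–16.6 RPKM). Control levels were 36.02 ± 20.4 RPKM (n = 12) in hypoglossal, 17.9 ± 6.35 (n = 11) in vagus, 13.7 ± 9.82 (n = 13) in facial, 5.80 ± 4.39 (n = 13) in lumbar, 2.03 ± 2.08 (n = 12) in ocular and 0.695 ± 1.06 (n = 11) in red nucleus samples, where 4 of the 11 were listed at 0. Averaged over the ages, ocular neurons thus held less Calb1 than hypoglossal (−3.59, SE 0.29), vagus (−2.81, SE 0.30), facial (−2.06, SE 0.28) and lumbar neurons (−1.04, SE 0.28, limma adjusted p = 0.00615). By age, the ocular minus lumbar difference was −1.465 (SE 0.50), −1.62 (SE 0.47) and −0.025 (SE 0.50) at days 2, 5 and 10. Only that of day 5 passed. The ocular and red nucleus levels did not differ beyond the threshold (0.78, adjusted p = 0.0574). The step from hypoglossal to vagus passed narrowly (0.78, adjusted p = 0.0483), and it held in 3 of the 15 fits that left out 1 mouse each.

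Calb2 was highest in lumbar neurons (53.7 ± 62.2 RPKM, n = 13) and lowest in facial neurons (2.26 ± 3.41, n = 13), with vagus at 28.4 ± 17.4, hypoglossal at 17.8 ± 17.5, red nucleus at 16.3 ± 14.9 and ocular at 10.0 ± 9.56. These SDs span the 3 ages. No neighbours among lumbar, vagus, red nucleus and hypoglossal passed (adjusted p from 0.105 to 0.978), but lumbar exceeded hypoglossal by 1.22 (adjusted p = 0.0425) and red nucleus by 1.18 (adjusted p = 0.0385). Both calls were lost with a pseudocount of 0.1 (0.138 and 0.153) and with no filter (0.0693 and 0.0652). Ocular was lower than lumbar by 2.17 (SE 0.42, adjusted p = 6.93e-05) and higher than facial by 1.55 (SE 0.42, adjusted p = 0.00563). The second call did not hold without the single-nucleus libraries (1.26), a fit that left control mouse 71 as the only ocular control at day 5.

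The summed RPKM of the 3 buffers therefore had a different make-up in each population. At day 10 in controls, Pvalb was 98.8% of the sum in ocular and 98.2% in red nucleus neurons, Calb2 was 65.1% in lumbar and 63.2% in vagus neurons, and Calb1 kept its largest share, 31.5%, in the vagus. The day-10 sums were 1799 RPKM in ocular, 578 in red nucleus, 217.1 in lumbar, 143 in hypoglossal, 74.9 in vagus and 35.8 in facial neurons. The facial sum hardly moved with age (27.9, 32.7 and 35.8) while the Calb1 share went from 64.5% to 11.0% and the Pvalb share from 23.7% to 77.4%.

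**Figure D1:**
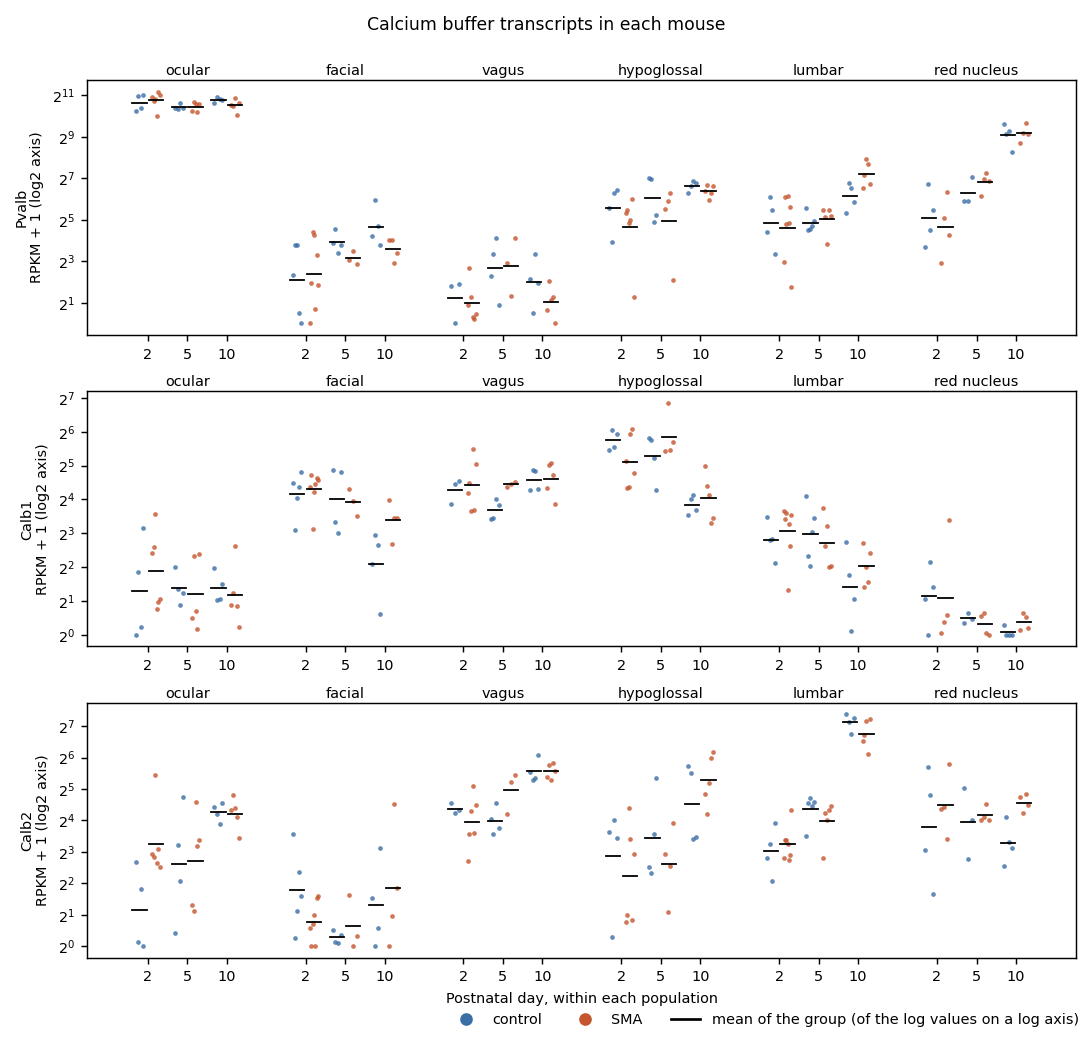
Level of Pvalb, Calb1 and Calb2 in each mouse (RPKM + 1, log2 axis) by population and postnatal day; blue points are control and orange points SMA mice, and a bar is the mean of the log values of a group. Pvalb stays at 1020 RPKM or more in every ocular sample of both genotypes, its red nucleus points climb from 11.8–104 at day 2 to 311–776 at day 10 in controls, and Calb2 climbs in lumbar neurons.

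Among the exchangers, which carry calcium out in trade for sodium, Slc8a3 was the main transcript. It ranged from 1.61 to 22.5 RPKM over the 160 samples and was never at 0, with control means of 11.8 ± 3.93 in lumbar, 9.03 ± 2.92 in facial, 8.01 ± 3.17 in hypoglossal, 7.51 ± 2.67 in red nucleus, 6.46 ± 3.01 in ocular and 5.42 ± 2.24 in vagus neurons. Lumbar exceeded ocular by 0.87 (SE 0.18, adjusted p = 0.000243) and vagus by 1.03 (SE 0.19, adjusted p = 8.93e-06), while no neighbours in the order passed. Slc8a2 marked the vagus: 4.59 ± 1.84 RPKM there against control means of 0.637 to 1.80 elsewhere, higher than each of the other 5 populations, by 1.0 (SE 0.19, adjusted p = 2.12e-05) over hypoglossal and by 1.79 over ocular neurons. Slc8a1, the exchanger best known from heart muscle, was barely detected, listed at 0 in 37 and reaching 1 RPKM in 41 of the 160 samples, and none of its 15 population comparisons passed.

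Among the pumps, Atp2b1, Atp2b2 and Atp2a2 were abundant in all populations, and all 4 had their lowest mean in the vagus. Atp2b1 was at 146 ± 26.8 RPKM in hypoglossal, 138 ± 26.7 in facial, 116.1 ± 37.4 in ocular, 99.2 ± 33.04 in lumbar, 63.3 ± 20.7 in red nucleus and 40.7 ± 9.44 in vagus control neurons. Atp2b2, the fast pump isoform best known from hair cells and Purkinje cells, was at 97.4 ± 12.7 in lumbar, 81.4 ± 11.8 in facial, 72.4 ± 15.6 in ocular, 70.7 ± 21.1 in red nucleus, 67.5 ± 9.48 in hypoglossal and 26.5 ± 4.04 in vagus neurons. Vagus Atp2b2 lay under the next population, hypoglossal, by 1.32 (SE 0.10, adjusted p = 4.24e-18), with no neighbours above that step passing. Ocular Atp2b2 was lower than lumbar by 0.44 (SE 0.09, adjusted p = 0.000279). Atp2b3 was a minor isoform, at 0.342 to 8.54 RPKM, with control means from 1.59 in vagus to 3.70 in ocular neurons.

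Atp2a2 ranged only from 58.2 to 202.1 RPKM over all samples. Its control means were 165.4 ± 18.5 in ocular, 153.3 ± 17.5 in lumbar, 139 ± 21.6 in hypoglossal, 131 ± 37.2 in red nucleus, 125.4 ± 29.5 in facial and 72.1 ± 10.5 in vagus neurons. The vagus was lower than facial neurons by 0.79 (SE 0.08, adjusted p = 1.63e-12), and neighbours above did not differ beyond the threshold; ocular exceeded facial by 0.41 (SE 0.08, adjusted p = 6.27e-05) but not lumbar neurons (0.11, adjusted p = 0.375). Between ocular and lumbar controls 5 of the 10 genes passed, Pvalb higher and Calb1, Calb2, Slc8a3 and Atp2b2 lower in ocular neurons, against 15.7% of all genes. Between ocular and vagus controls 8 of 10 passed, against 26.7% of all genes. At single ages, 8 of 30 ocular against lumbar comparisons passed, against 5.36% of all tests: Pvalb at each age, Slc8a2 (−1.06) and Slc8a3 (−1.32) at day 2, Calb1 (−1.62) and Atp2b2 (−0.58) at day 5, and Calb2 (−2.86) at day 10. Apart from Pvalb and Slc8a3 these single-age calls each rest on few mice: Slc8a2 was lost without control mouse 20, 28 or 244 (adjusted p of 0.0957, 0.125 and 0.22), Atp2b2 without 29 or 30 (0.138 and 0.112), Calb2 without 247, 252 or 253 (0.0749, 0.0633 and 0.0582), and Calb1 without any of 29, 30, 71 and 75 (0.113, 0.0574, 0.136 and 0.13). Without the single-nucleus libraries, mouse 71 was the only ocular control left at day 5. The day-5 calls of Calb1 (−2.07) and Atp2b2 (−0.57) did not hold in that fit. With a pseudocount of 0.1 the day-10 call of Calb2 was lost (limma adjusted p = 0.129).

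**Figure D2:**
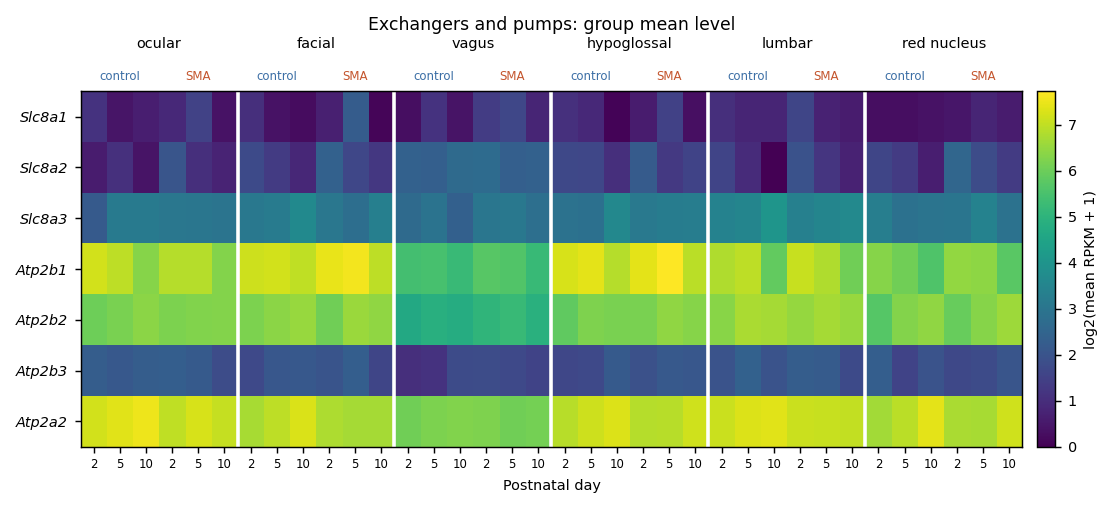
Mean level of the exchanger and pump genes (log2(RPKM + 1), colour scale) in each group of population, day and genotype. The vagus has the lowest control means of Atp2b1, Atp2b2 and Atp2a2, at 40.7, 26.5 and 72.1 RPKM, and the highest of Slc8a2, at 4.59.

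With age, the buffers changed most. Of 120 comparisons of day 10 with day 2 within a population and genotype, 23 passed (19.2%, 13 higher and 10 lower), against 7.22% of all tests. Each control comparison shares no mouse with the SMA one, while the oligodendrocyte marker sums were higher at day 10 in all populations but the vagus. Within each genotype, every day-10 library also had a higher library number than every day-2 library. The part of these markers and of library number in the age changes was not tested.

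Red nucleus neurons gained Pvalb. The control values were 11.8, 42.7, 104 and 21.6 RPKM at day 2 and 776, 560, 625 and 311 at day 10, and the SMA values 6.58, 33.2, 78.6 and 18.0 and then 411, 572, 807 and 569. No day-2 sample reached the lowest day-10 sample in either genotype. The day-10 control sample of mouse 252 came from the shallowest library, of 0.342 M reads. The rise was 3.99 (SE 0.57, limma adjusted p = 6e-05) in controls and 4.52 (SE 0.57, adjusted p = 4.58e-05) in SMA mice, in a control contrast where 11.1% of all genes passed. The inhibitory neuron markers summed to 0.0859–20.49 at day 2 and 0–7.53 at day 10 in the control samples, with Slc6a5 at 0 in every day-10 one. Ocular Pvalb showed no such change (0.14, SE 0.21, adjusted p = 0.752), and the difference between the 2 age changes, a comparison chosen after seeing the data, was −3.85 (SE 0.90, adjusted p = 0.0139). It did not pass without control mouse 14 (−3.51, adjusted p = 0.0544) or control mouse 247 (−3.62, adjusted p = 0.0704), or with a pseudocount of 0.1 (−3.90, adjusted p = 0.124).

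Lumbar neurons gained Calb2. Control values were 5.95, 3.24, 14.2 and 8.62 RPKM at day 2, 10.4, 22.4, 25.3, 21.0 and 22.9 at day 5, and 165.4, 139.9, 105.8 and 152.5 at day 10. Every day-10 control sample stood above every earlier one. The rise was 4.11 (SE 0.37, adjusted p = 5.06e-09) in controls, where 12% of all genes passed, and 3.50 (SE 0.31, adjusted p = 2.05e-09) in SMA lumbar neurons, where 18.4% passed; the SMA mean went from 9.23 ± 4.57 (n = 7) to 111.5 ± 33.8 (n = 5). Inhibitory neuron markers in the lumbar controls summed to 9.54–46.3 at day 2 and 2.68–59.7 at day 10. Calb2 also rose in control ocular neurons (3.12, SE 0.77, adjusted p = 0.0105, from 0–5.39 to 14.0–22.6 RPKM), in SMA vagus neurons (1.61, SE 0.31, adjusted p = 0.00565) and in SMA hypoglossal neurons (3.06, SE 0.74, adjusted p = 0.0157). In the other genotype these changes did not pass. They were 0.98 in SMA ocular, 1.19 in control vagus and 1.67 in control hypoglossal neurons (adjusted p of 0.462, 0.161 and 0.316). In the hypoglossal SMA samples the inhibitory markers moved too, from 2.22–27.8 to 29.4–106.7, their part was not tested, and the Calb2 change did not pass without SMA mouse 258 (2.83, adjusted p = 0.0505).

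Differences in age change between control populations, chosen after seeing the data, passed for 4 of 150 member tests (2.67%), against 0.875% of all tests. Besides Pvalb these were Calb2 in lumbar over red nucleus neurons (4.61, SE 1.04, adjusted p = 0.00647; 0.0875 with a pseudocount of 0.1), Calb2 in facial under lumbar neurons (−4.55, SE 1.01, adjusted p = 0.0213) and Slc8a2 in vagus over lumbar neurons (1.73, SE 0.47, adjusted p = 0.0419). The facial comparison of Calb2 was lost without control mouse 240 (adjusted p = 0.14), 247 (0.0913), 252 (0.157) or 253 (0.101), and that of Slc8a2 held in 4 of 15 such fits (adjusted p up to 0.194).

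Other buffer changes went both ways. Calb1 fell in control hypoglossal neurons by 1.90 (SE 0.41, adjusted p = 0.00506), from 45.7, 60.5, 43.1 and 64.6 RPKM at day 2 to 10.7, 15.2, 16.6 and 11.9 at day 10, and in control facial neurons by 2.08 (SE 0.45, adjusted p = 0.00505), from 18.2 to 3.97 RPKM on average. The facial call was lost with only the compared groups in the fit (adjusted p = 0.074). The hypoglossal values of the 2 ages did not overlap. In SMA mice the corresponding Calb1 values were −1.05 (SE 0.35, adjusted p = 0.0909) and −0.91 (SE 0.42, adjusted p = 0.223), and whether the genotypes differ in this change is part of the F tests below. Pvalb rose in SMA lumbar neurons (2.62, SE 0.56, adjusted p = 0.00115), from 35.5 ± 27.1 (n = 7) to 158 ± 65.2 RPKM (n = 5). In control lumbar neurons its change was 1.30 (SE 0.68, adjusted p = 0.249).

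The transporters changed less, and Atp2b1 and Atp2b2 shifted in opposite directions in lumbar neurons of controls. Atp2b1 fell there by 0.93 (SE 0.15, adjusted p = 4.93e-05) in controls, from 123.6, 95.1, 94.8 and 129.4 RPKM at day 2 to 58.7, 51.5, 55.5 and 62.5 at day 10, and by 1.05 (SE 0.12, adjusted p = 3.5e-07) in SMA mice. It also fell in control ocular neurons by 0.87 (SE 0.22, adjusted p = 0.0127). In SMA ocular neurons the change was −0.60 (SE 0.19, adjusted p = 0.0549). In lumbar controls Atp2b2 rose by 0.34 (SE 0.11, adjusted p = 0.0371), and in red nucleus controls by 0.73 (SE 0.23, adjusted p = 0.044), the first lost without control mouse 20, 240, 244, 252 or 253 (adjusted p of 0.129, 0.0704, 0.0681, 0.0734 and 0.127) and the second without control mouse 26, 244, 252, 253 or 254 (0.12, 0.112, 0.0959, 0.124 and 0.104). The Atp2b2 change in SMA lumbar neurons was 0.05 (SE 0.09, adjusted p = 0.75). In SMA red nucleus neurons it was 0.69 (SE 0.23, adjusted p = 0.0929). Of the summed plasma membrane pump RPKM in lumbar controls, Atp2b1 made up 56.6%, 52.6% and 35.1% at days 2, 5 and 10, and Atp2b2 41.9%, 45.6% and 63.1%. In ocular controls the Atp2b1 share went from 68.3% to 47.7%.

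Slc8a2 fell in lumbar neurons of both genotypes, by 1.53 (SE 0.28, adjusted p = 0.000239) in controls and 1.18 (SE 0.23, adjusted p = 0.000357) in SMA mice. Lumbar control values were 2.57, 1.25, 2.23 and 1.88 RPKM at day 2 and 0, 0, 0.0828 and 0 at day 10, against 3.51 to 8.46 in vagus controls at day 10. It also fell in SMA ocular (−1.18, adjusted p = 0.027) and SMA facial neurons (−1.28, adjusted p = 0.0366); the first was lost without SMA mouse 206, 207, 249 or 258 (adjusted p of 0.0605, 0.0731, 0.1 and 0.0569), the second without SMA mouse 38, 206, 211, 249 or 258 (0.0597, 0.0681, 0.0532, 0.189 and 0.177). In controls the Slc8a2 change was −0.10 in ocular (adjusted p = 0.918) and −0.88 in facial neurons (adjusted p = 0.244). Slc8a1 fell in SMA lumbar neurons (−0.97, adjusted p = 0.0228) at levels near the detection limit, a call lost without SMA mouse 196, 199, 206, 211 or 250 (0.0557, 0.0686, 0.0556, 0.0505 and 0.0633). Its change in control lumbar neurons was −0.29 (adjusted p = 0.703).

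Atp2a2 rose in control red nucleus neurons by 0.78 (SE 0.17, adjusted p = 0.00451), from a mean of 99.05 to 169.4 RPKM. With only the compared groups in the fit the adjusted p was 0.0506. In facial (0.59, adjusted p = 0.0466) and hypoglossal controls (0.43, adjusted p = 0.0465) it passed narrowly. The facial call was lost without control mouse 26, 240, 244, 247, 253 or 254 (adjusted p of 0.0816, 0.105, 0.12, 0.18, 0.13 and 0.0593), and the hypoglossal call without any 1 of the 8 mice compared (up to 0.137). In SMA mice the same 3 changes were 0.43, −0.09 and 0.30, with adjusted p of 0.174, 0.816 and 0.126.

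**Figure D3:**
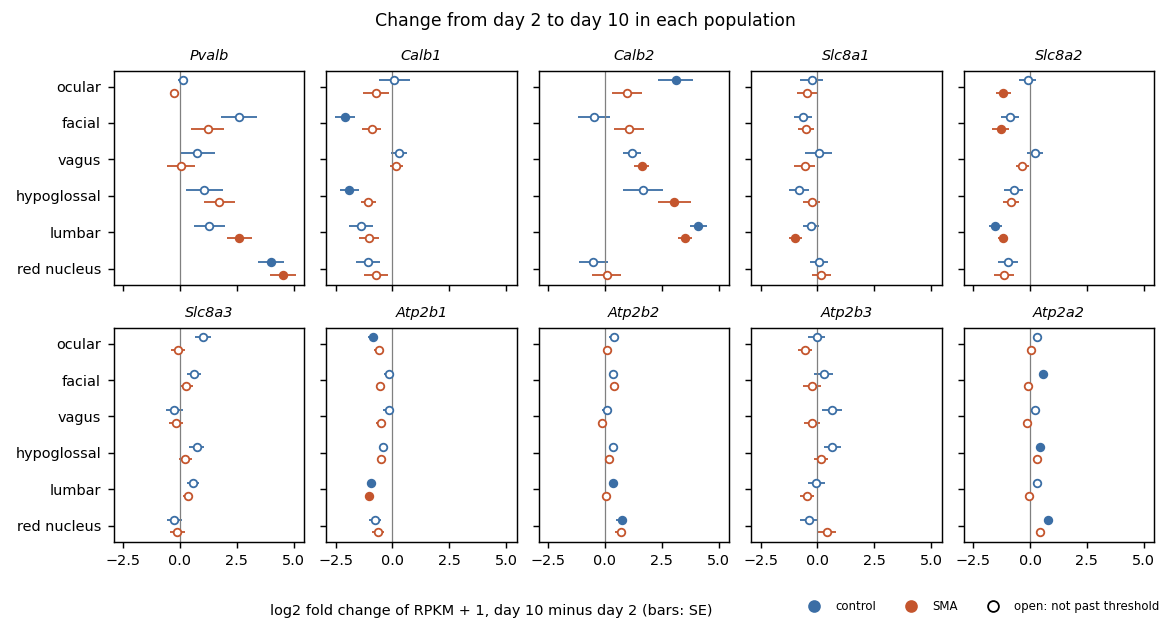
Change from day 2 to day 10 (log2 difference with its SE) of the 10 genes in each population and genotype; filled points passed an adjusted p of 0.05. The largest rises are Pvalb in the red nucleus (3.99 and 4.52) and Calb2 in lumbar neurons (4.11 and 3.50), and Atp2b1 lies under 0 in lumbar neurons of both genotypes.

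Between SMA and control mice, no member passed in any population at any age. All 180 comparisons had adjusted p of 0.0993 or more with limma, against 0.129% of all tests passing (382 of 296595); 15 had an unadjusted p under 0.05, and of all tests 7.1% did. With a pseudocount of 0.1 in place of 1, Slc8a2 in lumbar neurons at day 10 passed (2.57, adjusted p = 0.00474), where 3 of 4 controls were listed at 0 and the SMA values were 0.32 to 1.44 RPKM. Ocular Pvalb had an SMA minus control difference of 0.12 at day 2 (95% interval −0.27 to 0.50), 0.02 at day 5 (−0.38 to 0.42) and −0.27 at day 10 (−0.67 to 0.13). Its SMA level was 1583 ± 363 RPKM (n = 16, range 1020 to 2307). The genotype difference changed with age for 0 of 60 member tests (5 at an unadjusted p under 0.05, lowest adjusted p 0.662; 0.0344% of all tests passed) and differed between ocular and lumbar neurons for 0 of 30 (4 unadjusted, lowest adjusted p 0.438; 0.0254% of all tests).

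Averaged over the 6 populations, a comparison chosen after seeing the data, 2 of 30 member tests passed (6.67%), against 1.15% of all tests: Atp2a2 at day 10, in a contrast with 1.78% of all genes, and Slc8a2 at day 2, with 1.54%. Atp2a2, the pump that refills the calcium store of the endoplasmic reticulum, was lower in SMA mice by 0.33 (SE 0.06, limma adjusted p = 1.95e-05; 95% interval −0.45 to −0.22). With 1 value per mouse the size was the same, −0.32 (SE 0.09), but the adjusted p was 0.114, so the call was lost when each mouse counted once. The mean deviation of a mouse over its populations was 0.26, 0.03, 0.23 and 0.14 in the 4 controls. It was −0.13, −0.12, −0.28, −0.02 and −0.23 in the 5 SMA mice. At day 5 the difference was −0.20 (SE 0.06, adjusted p = 0.15) and at day 2 it was 0.02 (SE 0.05, adjusted p = 0.935).

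By population, Atp2a2 was lower in SMA mice in 6 of 6 at day 10, from −0.61 in facial to −0.15 in hypoglossal neurons, and in 6 of 6 at day 5, from −0.30 to −0.12. None of these passed alone. In ocular neurons at day 10 the controls were at 202.1, 175.7, 174.8 and 182.6 RPKM and the SMA mice at 141.3, 124.1, 102.2, 159.2 and 126.9. In facial neurons the values were 188.9, 128.9, 167.5 and 138.4 against 120.01, 108.5, 94.3 and 84.6, and in lumbar neurons 159.4, 169.2, 172.7 and 159.7 against 129.7, 141.3, 122.9, 125.3 and 130.3. In these 3 populations every SMA mouse lay under every control, while hypoglossal (147.5–172.7 and 130.4–152.7), red nucleus (140.4–186.3 and 136.8–146.6) and vagus values (64.7–89.5 and 58.2–79.8) overlapped. A gap with all SMA mice below at day 10 occurred in 5 of the 60 member and population pairs, against 1.16% of all pairs of gene and population. Of these, 3 were the Atp2a2 pairs above, which share mice. The others had narrow gaps. For Slc8a3 in facial neurons the highest SMA value and the lowest control value were both 10.92 after rounding. For Atp2b2 in lumbar neurons they were 94.35 and 95.61. All SMA mice lay above all controls in 2 of the 60, Slc8a2 in lumbar (0.32–1.44 and 0–0.0828) and Calb2 in red nucleus neurons (17.9–27.4 and 4.92–16.4), against 2.4% of all pairs.

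Other measures moved beside Atp2a2 at day 10, and their part was not tested. The motor neuron markers summed to 926–1024 in ocular controls and 452–875 in ocular SMA samples, but overlapped in facial (1468–1788 and 1617–1838) and lumbar samples (1201–1799 and 1282–1462). Astrocyte markers summed to 19.5–37.1 in facial controls and 38.6–65.6 in facial SMA samples, and overlapped in ocular and lumbar samples. Oligodendrocyte marker sums overlapped in all 3. Median depth was alike, at 4.979 M reads in the control and 4.804 M in the SMA libraries of day 10. The ranges were 0.342 to 9.406 M and 2.162 to 10.811 M reads.

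**Figure D4:**
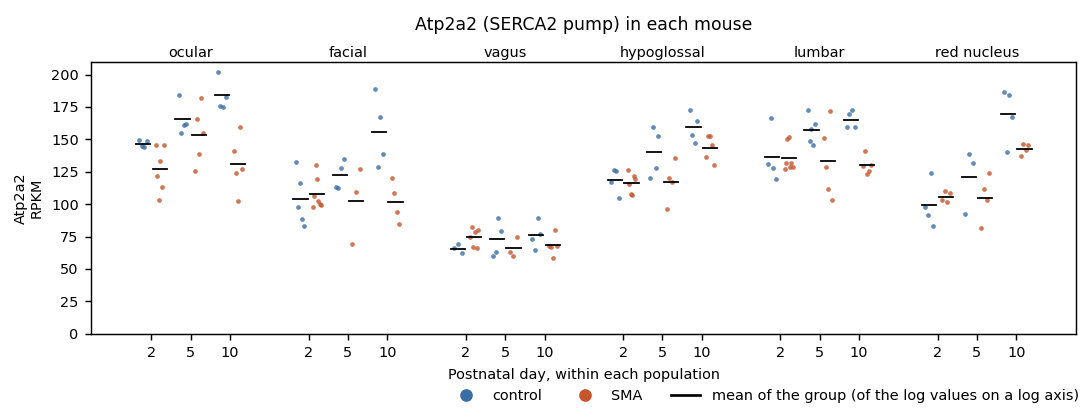
Atp2a2 level (RPKM, linear axis) in each mouse by population and postnatal day; blue points are control and orange points SMA mice, and a bar is the mean of a group. At day 10 the SMA points lie under all control points in ocular (102.2–159.2 against 174.8–202.1), facial and lumbar neurons, and the vagus is lowest throughout.

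Slc8a2 at day 2 was higher in SMA mice by 0.65 over all populations (SE 0.14, adjusted p = 0.00375; 95% interval 0.37 to 0.94), and higher in 6 of 6 populations, by 0.29 to 1.42. The largest single difference was in ocular neurons, with 1.57, 0.083, 0.251 and 0.0892 RPKM in controls and 1.16, 4.11, 6.43, 3.10, 2.33 and 1.40 in SMA mice, where adjusted p was 0.0993; without control mouse 14 it passed (1.71, adjusted p = 0.0371). With 1 value per mouse the difference over all populations was 0.46 (SE 0.15, adjusted p = 0.243), and without control mouse 26 the joint fit gave 0.54 (adjusted p = 0.07). The mean deviations of mice overlapped: −0.72 to 0.11 in the 6 controls, 0.29 to 0.75 in the 4 SMA mice sampled in all 6 populations, and −0.18 to 0.15 in the other 5 SMA mice. Library numbers also followed genotype at this age: the 37 SMA libraries spanned a range of library numbers that held 2 of the 24 control libraries. A comparison of SMA with control mice therefore cannot tell this stretch of numbers from genotype at day 2. The other control libraries lay on both sides of that stretch. Control mice 240 and 244, numbered above every SMA library, had deviations of −0.08 and −0.34. Control mice 14 and 26, numbered below every SMA library, had deviations of −0.14 and −0.72. Within the SMA mice, the 4 with the higher deviations also had the highest library numbers. The other 5 SMA mice had lower library numbers, and their deviations overlapped those of the controls. The part of library number in the Slc8a2 difference was not tested.

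**Figure D5:**
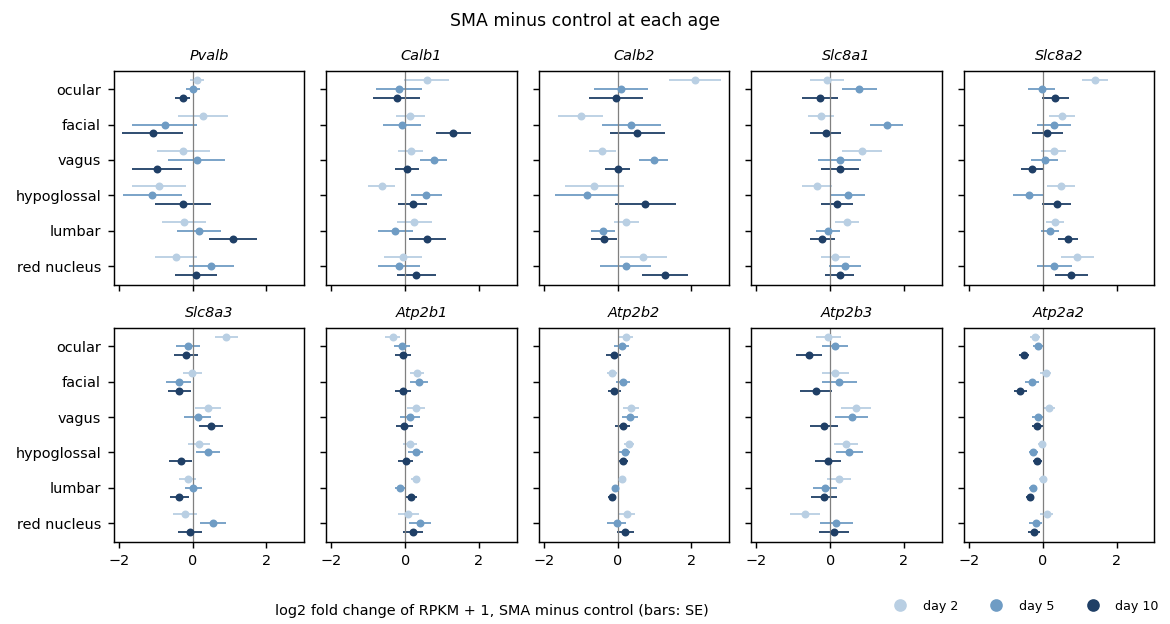
SMA minus control difference (log2, with its SE) of the 10 genes in each population and age. No point passed an adjusted p of 0.05, and the Atp2a2 points lie under 0 in all 6 populations at days 5 and 10.

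Other genes of calcium handling were counted from 5 lists, of which 59 of 60 symbols had a row. Between SMA and control in single populations, 1 gene passed once, the calcium store protein gene Casq2, in facial neurons at day 10 (adjusted p = 0.0172), at 2.39 ± 1.89 RPKM in SMA mice (n = 4) and listed at 0 in all 4 controls. Over all populations Micu3, a regulator of mitochondrial calcium uptake, was lower in SMA mice at day 2 (−0.66, SE 0.14, adjusted p = 0.0015) and Casq2 higher at day 10 (0.42, SE 0.12, adjusted p = 0.0275). Neither passed with 1 value per mouse (−0.46 and 0.42, limma adjusted p of 0.353 and 0.256). The day-2 libraries were numbered as described for Slc8a2, and the part of library number in the Micu3 difference was not tested. The list medians were 0.02 and 0.01 against 0.04 and 0.05 over all genes.

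Between ocular and lumbar controls 8 of the 55 listed genes tested were higher and 18 lower, where 15.7% of all genes passed, with a median of −0.18 against −0.03 over all genes. Itpr1, an inositol trisphosphate receptor that releases stored calcium, was higher in ocular neurons (2.21, SE 0.17, adjusted p = 2.57e-16; 7.30 against 1.49 RPKM at day 10). Sln, a peptide that inhibits SERCA pumps, was lower there (−3.91, SE 0.43, adjusted p = 1.15e-10), listed at 0 in ocular and at 40.1 ± 31.5 in lumbar controls at day 10. Atp2b4, the remaining plasma membrane pump gene, was lower in ocular neurons as well (−1.70, SE 0.15, adjusted p = 8.03e-14; 2.01 against 11.1 RPKM at day 10) and fell with age in ocular controls (−1.95, SE 0.37, adjusted p = 0.00111). The vagus stood apart in this wider group too: 20 of 55 listed genes were higher and 13 lower in ocular than in vagus neurons, where 26.7% of all genes passed, with Cabp7 (5.49) and S100b (4.02) higher and secretagogin, Scgn, lower (−5.34), at 162.9 and 2.33 RPKM, 648 and 29.2, and 0.128 and 58.3 at day 10. S100b is also a gene of glia. The oligodendrocyte marker sums at day 10 were 234.1–305.4 in ocular and 15.3–49.4 in vagus controls. Their part was not tested. S100b rose with age in the red nucleus as Pvalb did, by 4.56 (SE 0.48, adjusted p = 1.64e-06) in controls, from 10.6 to 213.1 RPKM.

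Likeness of pattern was measured by Pearson's r of log2(mean RPKM + 1) over the 18 control groups of population and age, which share mice, and is given as a description. Among 9358 candidate genes, Pex5l (r = 0.892), Camk2n1 (0.878) and En1 (0.878) came nearest to Pvalb, Rhoc (0.960), Abcg2 (0.95) and the mitochondrial uniporter subunit gene Ccdc109b, also called Mcub (0.930), to Calb1, while Phyhip (0.699) and Rnf41 (0.699) were among the nearest to Calb2. Prmt2 (0.957), Nagk (0.940) and Fxyd6 (0.935) were nearest to Slc8a2, 1700066M21Rik (0.888), P2rx6 (0.871) and Cab39 (0.820) to Slc8a3, and Thnsl1 (0.757), Frmd5 (0.711) and Txn2 (0.703) to the scarcely detected Slc8a1. For the pumps the nearest were Fgf9 (0.959), Cacng2 (0.956) and the sodium channel gene Scn8a (0.955) for Atp2b2, Hapln4 (0.977), Fgf11 (0.976) and the potassium channel gene Kcna1 (0.965) for Atp2a2, Ppp1r1c (0.937), Epha5 (0.911) and Sgcb (0.899) for Atp2b1, and Cycs (0.895), Camk1d (0.865) and Ppm1e (0.862) for Atp2b3. Within the 10 genes the highest r was 0.897, for Atp2b2 with Atp2a2, and the lowest −0.899, for Slc8a2 with Atp2a2; over the 15 groups without the vagus these were 0.597 and −0.791.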

How the data were processed

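Laser-cut neurons of 34 mice were measured as 168 Smart-seq2 libraries of polyA RNA. The authors deposited 1 table of 39410 rows in RPKM, a unit that divides reads by gene length and by sequencing depth. Per the submitters' processing notes, STAR 2.4.1c and the builds mm10 and hg19 were used, with no role or order given; the counter and its use of strand are not given in the sources used here. Per the labels, 5 lumbar control libraries of day 5 had reads of an earlier deposit added at mapping. Libraries of the same mouse and population were averaged (8 of 160 samples had more than 1), which for some ocular samples joins both nuclei. Depth was recovered from the steps of low RPKM values: with a tolerance of 0.01 reads a median of 73.0% of low values per library (at least 62.2%) came out as whole reads, so no count test was run.

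Tests ran on log2(RPKM + 1), using limma 3.58.1 (lmFit, eBayes with a trend) under R 4.3.3; they were two-sided, with p-values adjusted by Benjamini and Hochberg over all genes tested in each contrast, with a threshold of 0.05. Genes below 1 RPKM were left out of a fit unless as many samples as its smallest group reached that level; all 10 genes entered every fit. SMA against control, and day 10 against day 2, were fitted per population. Populations were compared in controls and in SMA mice with the mouse as a block (duplicateCorrelation, consensus correlation 0.034 and 0.041). The number in the labels marks the same animal across populations, which is where the pairing comes from. The mouse block moved no count of calls by over 1.5 times. Fits were tested on simulated data. No interval for single counts is given, since the table holds no counts. Replicates are mice.

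The 10 genes and the lists were chosen with earlier results of these data known, and the comparison over all populations, the differences in age change and the count of values without overlap were chosen after seeing the data. Named genes were the 10 members, listed genes past the threshold (the 5 with the largest change where more passed, of which the text gives a part) and the 3 genes most like each member in pattern among those with a group mean of at least 10 RPKM. For Calb2, 1 of these 3 is not reported here, and 1 marker gene was left out of the oligodendrocyte sums likewise. Alternatives were a pseudocount of 0.1, no filter, quantile normalization, no block, mouse as fixed terms, only the groups compared, each library as its own sample, ocular samples without single-nucleus libraries, 1 value per mouse, and leaving out each mouse. Promoter windows and gene positions are from RefSeq (GRCm38.p6) and GENCODE M21 (GRCm38).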

Additional observations from a re-analysis of the deposited data

Results flagged for a closer look

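In groups of 4 to 10 mice, a sample was set apart when its gap to the next value took up most of the group's range (Dixon's test at 95%). This held in 25 of 320 groups of the 10 genes, and chance gives about 1 in 20. In 6 of the 25 every other mouse was listed at 0, so that any value above 0 is set apart; the remaining 19 of 320 are near that share. Values are RPKM, with the range of the other mice of the group.

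Pvalb was at 1.46 in mouse 211 of the hypoglossal SMA day 2 group (others 28.2 to 62.4) and 13.3 in mouse 61 of the lumbar SMA day 5 group (others 34.5 to 43.5). Calb1 was at 7.81 in mouse 38 of the facial SMA day 2 group (others 17.6 to 25.5), 9.52 in mouse 211 of the red nucleus SMA day 2 group (others 0.0331 to 0.502) and 0.229 in mouse 247 of the red nucleus control day 10 group (all others listed at 0). Calb2 was at 0.232 in mouse 28 of the hypoglossal control day 2 group (others 9.99 to 15.3), 18.9 in mouse 211 of the lumbar SMA day 2 group (others 5.71 to 9.43) and 6.04 in mouse 31 of the lumbar SMA day 5 group (others 15.1 to 20.9). Further Calb2 values were 10.4 in mouse 29 of the lumbar control day 5 group (others 21 to 25.3), 42.8 in mouse 206 of the ocular SMA day 2 group (others 4.8 to 7.5) and 21.9 in mouse 76 of the red nucleus SMA day 5 group (others 15.2 to 16.2).

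Slc8a1 was at 0.935 in mouse 250 of the hypoglossal SMA day 10 group (others 0 to 0.196), 0.228 in mouse 253 of the hypoglossal control day 10 group (all others listed at 0) and 0.874 in mouse 14 of the red nucleus control day 2 group (all others listed at 0). Further Slc8a1 values were 1.19 in mouse 254 of the red nucleus control day 10 group (all others listed at 0) and 1.35 in mouse 254 of the vagus control day 10 group (all others listed at 0). Slc8a2 was at 7.33 in mouse 211 of the hypoglossal SMA day 2 group (others 2.45 to 3.57), 0.0828 in mouse 253 of the lumbar control day 10 group (all others listed at 0) and 1.57 in mouse 14 of the ocular control day 2 group (others 0.083 to 0.251). Further Slc8a2 values were 5.85 in mouse 31 of the red nucleus SMA day 5 group (others 1.19 to 1.64) and 0.34 in mouse 26 of the red nucleus control day 2 group (others 2.49 to 2.9).

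Atp2b2 was at 59.1 in mouse 249 of the hypoglossal SMA day 10 group (others 79.7 to 88.3). Atp2b3 was at 3.44 in mouse 199 of the facial SMA day 10 group (others 1.55 to 1.68), 5.9 in mouse 71 of the facial control day 5 group (others 2.21 to 2.49) and 4.32 in mouse 75 of the hypoglossal control day 5 group (others 1.46 to 1.62).

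Mouse 211, an SMA mouse of day 2, appears in 4 of these groups. The ocular difference of Calb2 between genotypes at day 2, whose SMA group holds mouse 206, did not pass (2.09, SE 0.70, limma adjusted p = 0.252).

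Age changes from day 2 to day 10 differed between control populations for Pvalb (ocular minus red nucleus −3.85, SE 0.90), Calb2 (facial minus lumbar −4.55, SE 1.01, and lumbar minus red nucleus 4.61, SE 1.04) and Slc8a2 (vagus minus lumbar 1.73, SE 0.47), with limma adjusted p of 0.0139, 0.0213, 0.00647 and 0.0419. These were tested directly in 1 fit of all control samples.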

How the results depend on the processing

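No member result reversed under any alternative run, and no level moved by more than its spread between mice. The number of member calls went from 0 to 1 in SMA against control by population with a pseudocount of 0.1 (Slc8a2, lumbar, day 10), from 2 to 0 over all populations with 1 value per mouse, and from 4 to 1 in the differences of age change with a pseudocount of 0.1. Leaving out each mouse in turn gave 0 to 1 calls by population (1 without control mouse 14), 1 to 3 over all populations (1 without control mouse 26), 0 to 0 for the change of the genotype difference with age and for ocular against lumbar, 19 to 24 for age, 2 to 5 for differences in age change (2 without control mouse 247, 252 or 253), 6 to 9 for ocular against lumbar controls at single ages, 77 to 87 of 150 for populations in controls and 72 to 78 in SMA mice. The cause of these losses was not tested.

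Without the mouse as a replicate block the populations gave 81 calls in controls and 78 in SMA mice, and with mouse as fixed terms 82 in controls; the paired fit with fixed terms ended the day-2 ocular against lumbar call of Slc8a2 (−0.93, adjusted p = 0.164), the age difference of Calb2 between facial and lumbar (adjusted p = 0.106) and that of Slc8a2 between vagus and lumbar neurons (adjusted p = 0.163). Leaving out the single-nucleus ocular libraries left mouse 71 as the only ocular control at day 5. Calls that did not hold there were ocular minus facial for Slc8a2 (−0.49), Slc8a3 (−0.365) and Calb2 (1.26). Others were ocular minus hypoglossal for Slc8a2 (−0.61) and Atp2a2 (0.23), and vagus minus hypoglossal for Calb1 (−0.78). The day-5 calls of Calb1 and Atp2b2 between ocular and lumbar neurons did not hold either. That fit cannot tell the nuclei from the loss of mice. With only the compared groups in the fit, age gave 16 in place of 23 calls, and 9 of the 23 did not hold. In SMA mice these were Slc8a2 in ocular and facial and Slc8a1 in lumbar neurons (limma adjusted p of 0.0797, 0.182 and 0.0742). In controls they were Atp2b2 in lumbar and red nucleus neurons (0.0681 and 0.17) and Calb1 in facial neurons (0.074). Atp2a2 in facial, hypoglossal and red nucleus controls was lost too (0.123, 0.133 and 0.0506). Quantile normalization moved the median of all genes by over 0.1 in 4 of 90 contrasts, by up to 0.14. Levels under 1 RPKM, as for Slc8a1, are limited by depth, and small groups of 3 to 7 mice limit the genotype tests.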

Other observations

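Of the wider calcium handling lists, 7 genes rose and 8 fell with age of 53 tested with limma in lumbar controls, where 12% of all genes passed, and 10 rose and 7 fell in SMA lumbar neurons, where 18.4% passed. In control red nucleus neurons 8 rose and 3 fell of 50, where 11.1% of all genes passed, among them Cabp7 (2.95, SE 0.43, adjusted p = 7.99e-05), an EF-hand protein of the secretory pathway. The rise of Cabp7 was 1.88 (SE 0.40, adjusted p = 0.00419) in facial controls and 1.80 (SE 0.42, adjusted p = 0.00981) in hypoglossal controls. Sln rose in SMA lumbar (2.94, SE 0.65, adjusted p = 0.00147), SMA red nucleus (3.15, SE 0.74, adjusted p = 0.0136) and control hypoglossal neurons (3.06, SE 0.72, adjusted p = 0.0103). Oligodendrocyte marker sums were also higher at day 10 in these populations, and their part was not tested.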
